A study of Mus musculus with 8 samples.

Results

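The genes described here flank Penk, the gene coding proenkephalin, on mouse chromosome 4. They were chosen by position: every gene of the deposited table that starts on chromosome 4 of GRCm39 below position 14141856, with a mean of at least 10 normalized counts over the 8 libraries, Penk itself left out. Of 26008 genes listed, 67 besides Penk lie in this window and 53 pass the minimum, of 19127 genes that pass it in all. The other 14 are short or non-coding genes with a highest mean of 8.42. Of the 53 genes, 41 are protein-coding, 6 are long non-coding RNAs and 6 are pseudogenes. Penk lies on the minus strand at chr4:4132722-4141856, with 10 of the genes before it and 43 beyond it, up to 10 Mb away.

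Colonic biopsies of bone marrow chimeras were sequenced in bulk, 1 library from each of 4 penk-/- and 4 penk+/+ chimeras. The recipients in both groups were male C57BL/6JRj mice, 7 weeks old and lethally irradiated. In the penk-/- chimeras the marrow came from male preproenkephalin-knockout mice (B6.129-Penk-rstm1Pig/J strain) 9 to 11 weeks old, and in the penk+/+ chimeras from male wild-type mice of the same age. The colon was taken 18 weeks after engraftment. The deletion is thus carried by marrow-derived cells only, and the epithelium, muscle and neurons of the colon are those of a wild-type recipient in both groups.

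Penk codes the precursor of the enkephalins, opioid peptides made by neurons and by lymphocytes. A gene knocked out in stem cells of one mouse strain and then crossed to another keeps a stretch of the first strain's chromosome around it, the passenger DNA, which shortens as backcrossing goes on. Genes in such a stretch can carry variants that alter their own expression, whatever the deleted gene does. In a chimera only the cells derived from the grafted marrow would carry it. The genes are compared by distance from Penk with this in mind. No variant was read from these data, and passenger DNA itself was not tested. In bulk colon the RNA of recipient cells is counted together with that of marrow-derived cells. A change confined to marrow-derived cells would therefore appear diluted.

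The libraries held 33.1 to 50.7 M counted reads (median 38.5 M). Penk had 453, 512, 616 and 531 normalized counts in penk-/- replicates 1 to 4 and 473, 496, 560.1 and 636 in penk+/+ replicates 1 to 4, a log2 fold change of -0.03 (95% interval -0.31 to 0.24), so its level in whole colon did not separate the groups. All 36 marker genes looked at for the cell types of the colon were listed, and 0 of them had an unadjusted p below 0.05. The 15 markers of blood-derived cells, the type that holds the grafted genome, summed to between 15017 and 21772 normalized counts in penk-/- and between 14191 and 21472 in penk+/+ chimeras. Abundant genes such as Jchain (1266 to 11521 in penk-/- chimeras) weigh most in this sum. Single markers went both ways: Cd3e, Cd4, Cd8a and Jchain had log2 fold changes of -0.80, -0.11, -0.63 and -0.59. The others of this list lay above 0, from 0.10 (Lcp1) to 0.38 (Coro1a). The share of marrow-derived cells was not measured. The 8 epithelial markers summed to 367126 to 522076 against 475672 to 569098. Sums over 5 smooth muscle and 5 neuronal markers overlapped between the groups as well (121206 to 201438 against 127845 to 199450, and 1556 to 2761 against 1759 to 2065). The 3 accessory sex gland markers ranged from 93.9 to 209863 in penk-/- and from 54.2 to 217825 in penk+/+ chimeras, with the highest sums in penk-/- replicate 3 and penk+/+ replicate 4. In bulk tissue, fewer cells of a type and less RNA per cell cannot be told apart.

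In 3 pairs of genes of the window the start sites lie within 1 kb of each other, on opposite strands. Nearest to Penk is that of Plag1, a zinc finger transcription factor, and Chchd7, a small protein of the mitochondrial intermembrane space. They point away from each other, with 495 bases between their start sites. The bases before the start of Chchd7 are shown because both genes were lower in the penk-/- chimeras. They are written 5′ to 3′ from GRCm39, chr4:3938627-3938856 on the plus strand, without bases of any annotated transcript of either gene, and capitals mark GGGCGG (the GC box) and CCAAT, on either strand.
Chchd7: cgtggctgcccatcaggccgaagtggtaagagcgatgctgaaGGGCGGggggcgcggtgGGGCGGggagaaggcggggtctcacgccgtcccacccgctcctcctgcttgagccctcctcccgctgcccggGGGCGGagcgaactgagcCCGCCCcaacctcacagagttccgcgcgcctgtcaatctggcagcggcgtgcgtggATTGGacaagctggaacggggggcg
The stretch holds 4 GC boxes, 1 CCAAT box and 24 CpG dinucleotides in 230 bases. Over the promoters of 19039 genes tested (250 bases before to 50 after the start), 48.3% hold GGGCGG and 37.8% hold CCAAT on either strand, and the median window is 56% G and C with 14 CpG dinucleotides. Among the 53 promoters of the window's genes, 52.8% hold GGGCGG and 50.9% hold CCAAT, and the medians are 52.7% and 14. These matches describe the letters only.

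Another pair of this kind is Pdp1, a phosphatase that activates the pyruvate dehydrogenase complex, and 1700123M08Rik, a long non-coding RNA, whose starts lie 140 bases apart. Their shared stretch is shown because the non-coding RNA was lower in the penk-/- chimeras while the groups overlapped for Pdp1. Outside both annotated genes it spans chr4:11966469-11966513, here on the plus strand, with CCAAT on the opposite strand in capitals.
Pdp1 and 1700123M08Rik: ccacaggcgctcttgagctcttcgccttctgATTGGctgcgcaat

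No gene of the window differed between the groups after adjustment over all genes tested. The comparison used limma on log2(normalized count + 1), with Benjamini-Hochberg adjustment over the 19127 genes, and a fold change on this scale understates the change of low genes. At an adjusted p below 0.05, 0 of the 53 genes were called, against 0 of all genes (0%), and the lowest adjusted p in the window was 0.323. Over all genes the lowest was 0.132, so this fit called no gene anywhere and the 0 of the window does not set it apart. With DESeq2, the paper reported a small number of genes of the colon as differentially expressed between the groups. That count test was not run here. At an unadjusted p below 0.05 there were 10 of the 53 genes (18.9%), 4 higher and 6 lower in penk-/- chimeras, against 9.63% of all genes tested and 10.3% of the 1065 genes on the rest of chromosome 4. This count was 4 (7.55%) without penk+/+ replicate 2 and 6 (11.3%) without penk+/+ replicate 4, where the shares over all genes were 7.51% and 10.4%, so the window was near the background in both. It was also 6 (11.3%) without the pair of libraries with the most accessory gland RNA, beside 9.07% of all genes. With any single library other than penk+/+ replicate 2 or 4 left out, the count was 8 to 10 (15.1% to 18.9%). The shares over all genes were then 7.23% to 11.6%.

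In 5 genes every penk-/- chimera lay below every penk+/+ chimera, against 2.74% of all genes with this order. None of the 53 genes had every penk-/- chimera above every penk+/+ chimera, against 2.89% of all genes. An exact permutation test over the 70 assignments of 4 of 8 mice gives such an order a two-sided p of 0.0286, which is the smallest it can give. This p is not adjusted, and for genes named below because of this order it only restates the order. In either direction, 5 of the 53 genes (9.43%) and 5.63% of all genes had groups that did not overlap. Groups of fewer mice overlap less, in the window and over all genes. The count in the window was 8 (15.1%) without penk-/- replicate 4 and also without penk+/+ replicate 1, and 9 (17.0%) without penk+/+ replicate 3, where the shares over all genes were 7.83%, 8.43% and 9.55%. Without the pair rich in accessory gland RNA it was 8 (15.1%), beside 15.3% of all genes, which is no more than the background.

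The median log2 fold change of the 53 genes was 0.01, with 28 genes above 0 and 25 below, beside 0.01 over all genes. The median size without the sign was 0.13, beside 0.12 over all genes and 0.12 over the rest of chromosome 4. The largest log2 fold changes were -0.96 and 0.67, and 0 of the 53 genes passed 1 in size, which 119 of all 19127 genes did. The 95% interval lay within a log2 fold change of 1 on either side of 0 in 47 genes, and within 0.5 in 27 genes, each of which had a mean of at least 100 normalized counts. Over all 19127 genes the intervals lay within 1 in 16666 and within 0.5 in 10455.

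**Figure D1:**
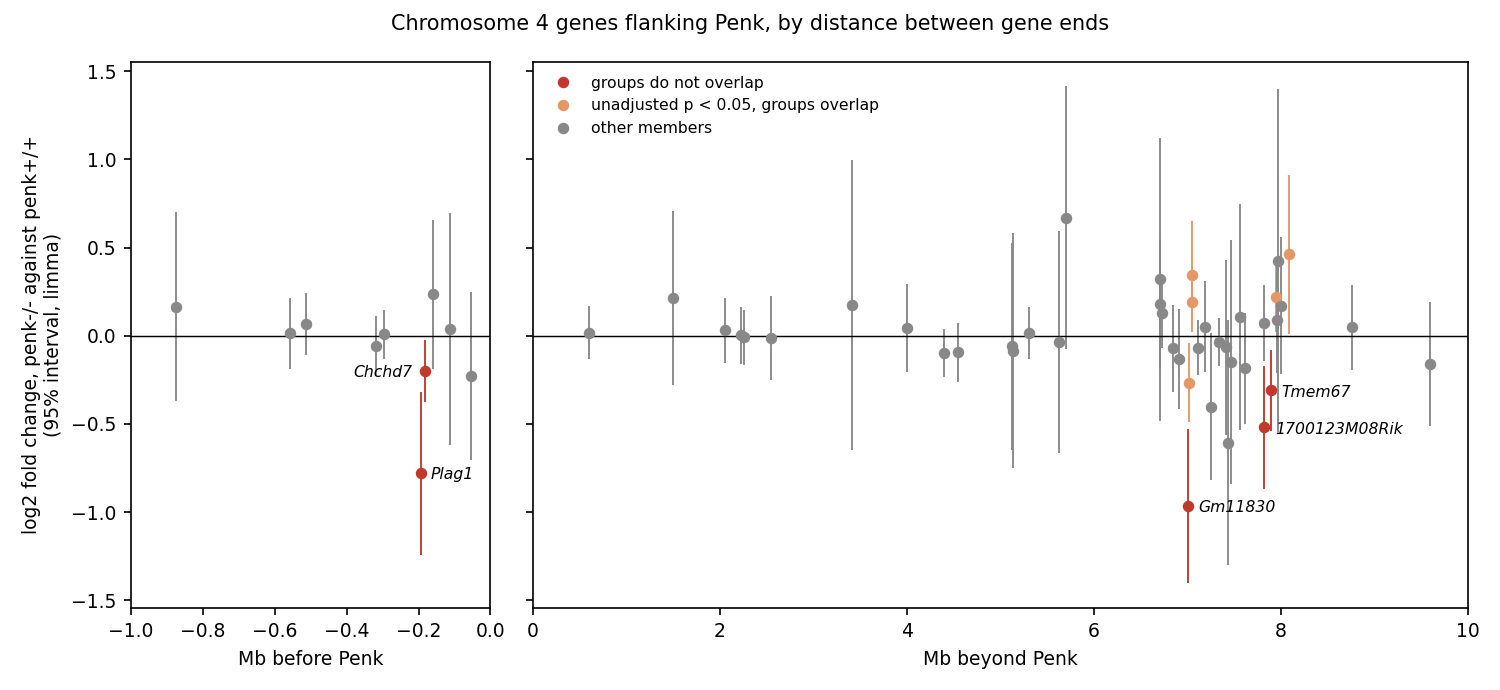
Log2 fold change of each of the 53 genes (penk-/- against penk+/+ chimeras, points, with 95% intervals from limma as lines) against the distance between its nearest end and Penk, in Mb, in separate panels for genes before and beyond Penk with different scales. Red marks the 5 genes whose groups do not overlap, 2 of them within 1 Mb of Penk, and no gene from 1 to 5 Mb is coloured.

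Distance from Penk was measured between the nearest gene ends. Over all genes tested, 9.63% had an unadjusted p below 0.05 and 5.63% had groups that did not overlap, in either direction. Within 1 Mb of Penk lie 11 genes, few for a share. Of these, 2 (18.2%) had an unadjusted p below 0.05, both lower in penk-/- chimeras and both with groups that did not overlap. Of the 9 genes from 1 to 5 Mb, 0 had an unadjusted p below 0.05, and their largest log2 fold change was 0.21. From 5 to 10 Mb there were 8 of 33 genes (24.2%), 4 higher and 4 lower, and 3 of the 33 (9.09%) were lower with groups that did not overlap. The median size of the log2 fold change was 0.07, 0.04 and 0.16 in these 3 ranges. Across the 53 genes the rank correlation of this size with the distance was 0.31, and with the mean normalized count it was -0.51. These are descriptions across genes, which share the same 8 libraries and are not independent, and the genes within 1 Mb of Penk had a smaller median standard error (0.09) than those beyond 5 Mb (0.15). Over the 36 genes with a mean of at least 100 the rank correlation with the distance was 0.38. Over the genes within 5 Mb it was -0.30, and with quantile-normalized values of all 53 genes it was 0.188.

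Nearest to Penk lie a pair of short-chain dehydrogenases that act on retinoids and related lipids. Sdr16c6, 55.2 kb away, had 48.5, 69.8, 35.6 and 55.2 normalized counts in the penk-/- chimeras (replicates 1 to 4, here and for each gene that follows) and 56.0, 60.9, 57.2 and 65.2 in the penk+/+ chimeras. Sdr16c5, 113 kb away, had 16.2, 17.2, 20.4 and 25.4 against 18.7, 11.4, 22.5 and 26.6. Their groups overlapped, with log2 fold changes of -0.23 (95% interval -0.70 to 0.25) and 0.04 (-0.62 to 0.69).

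Chchd7 and Plag1 lie 182 and 194 kb from Penk. Plag1 had 33.3, 38.9, 25.4 and 30.9 normalized counts in the penk-/- chimeras and 70.9, 50.4, 46.0 and 56.6 in the penk+/+ chimeras. Each penk-/- mouse lay below each penk+/+ mouse. The means were 32.2 ± 5.59 and 56.0 ± 10.9 (SD, n = 4 each), which gives -0.78 as the log2 fold change (standard error 0.21, limma adjusted p = 0.341, exact permutation p = 0.0286). Plag1 was among the lowest genes of the window per length of exon, at 5.19 normalized counts per kb, so few reads stand behind these values.

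Chchd7, on the far side of the shared start region, had 788, 696, 795 and 807 normalized counts in the penk-/- chimeras and 872, 973, 871 and 828 in the penk+/+ chimeras. Its groups did not overlap either, with 807 and 828 as the nearest values. The means were 771 ± 50.8 and 886 ± 61.3 (SD, n = 4 each), and the log2 fold change was -0.20 (standard error 0.08, limma adjusted p = 0.463, exact permutation p = 0.0286). The gene bodies of Plag1 and Chchd7 end 434 bases apart on opposite strands and share no base.

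Of the other genes before Penk, Rps20, a protein of the small ribosomal subunit, had the highest level per length within 1 Mb, 1312 normalized counts per kb of exon. It had 9891, 8933, 9664 and 9430.2 normalized counts in penk-/- and 9912, 9850.0, 8966 and 9001 in penk+/+ chimeras, a log2 fold change of 0.01 (95% interval -0.13 to 0.15). Lyn, a Src family kinase of B cells and myeloid cells, had 1570.2, 1485, 1331 and 1519 against 1501, 1683, 1523 and 1433. Its log2 fold change was -0.06 (-0.22 to 0.11) and its groups overlapped. Rps20 and Lyn overlap by 20959 bases on opposite strands, and the strand setting of the counting is not given in the sources used here.

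Tmem68, an acyltransferase, and Tgs1, the enzyme that adds methyl groups to the caps of small nuclear RNAs, also point away from each other, with gene bodies that overlap by 587 bases. Tmem68 had 1050.2, 920.4, 986 and 896 normalized counts in penk-/- and 971, 920.4, 1084 and 849 in penk+/+ chimeras. Tgs1 had 1153, 1015, 1116 and 1063 against 1119, 1059, 1063 and 916. Their log2 fold changes were 0.01 (95% interval -0.19 to 0.21) and 0.07 (-0.11 to 0.24), so this pair did not separate the groups as Plag1 and Chchd7 did.

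Other genes within 1 Mb are Bpnt2 and AI838599. Bpnt2, a Golgi phosphatase needed for sulfation and the first measured gene beyond Penk at 603 kb, had 6708, 6052, 5869 and 5933 against 6401, 5630.1, 6326 and 5901 normalized counts (log2 fold change 0.02, 95% interval -0.13 to 0.17). AI838599, a long non-coding RNA 875 kb before Penk, had 41.4, 59.5, 85.0 and 76.2 against 51.0, 54.2, 70.5 and 51.4 (0.17, -0.37 to 0.70). Both had groups that overlapped. Of the 9 genes within 1 Mb other than Plag1 and Chchd7, the largest log2 fold change was 0.23 in size.

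**Figure D2:**
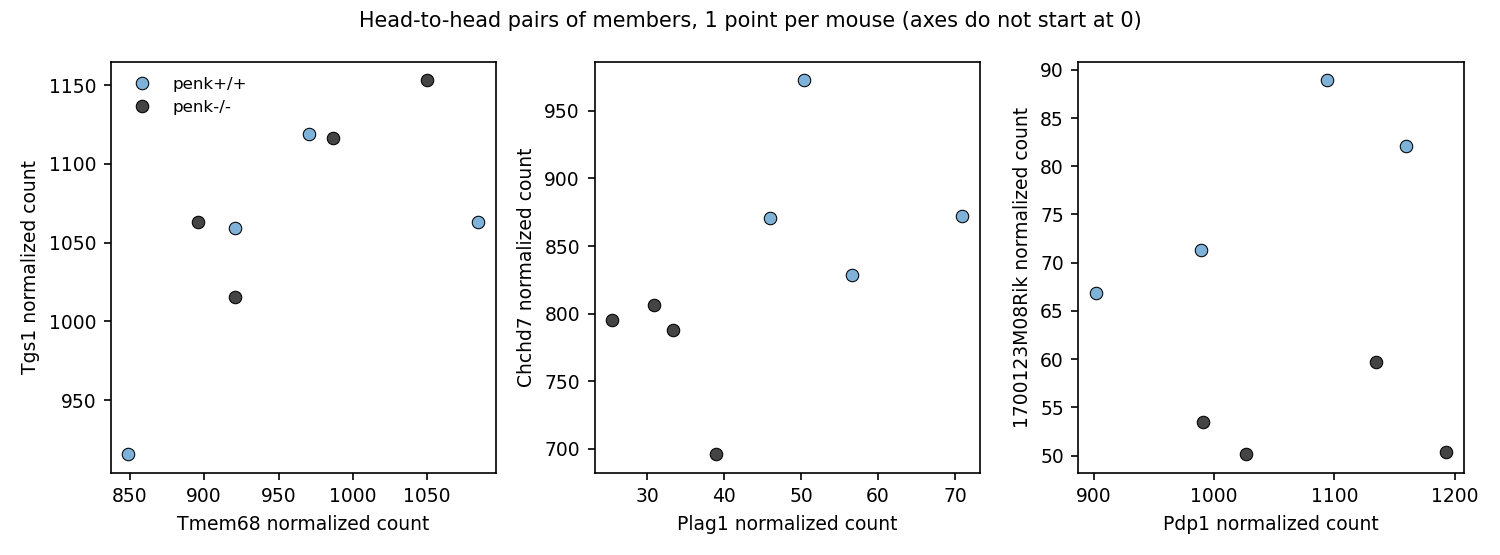
Normalized counts of both genes of each head-to-head pair, 1 point per mouse, on axes that do not start at 0. Plag1 and Chchd7 separate the groups on both axes, 1700123M08Rik does so without Pdp1, and Tmem68 and Tgs1 on neither.

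Between 1 and 5 Mb no gene separated the groups. These include Tox, a transcription factor of T lymphocyte development, with 433, 567, 486 and 515 normalized counts in penk-/- and 459, 504, 571 and 482 in penk+/+ chimeras (log2 fold change -0.01, 95% interval -0.25 to 0.22). Rab2a, a small GTPase of transport from the endoplasmic reticulum to the Golgi, had the highest level per length among them, with 1863 normalized counts per kb of exon and a log2 fold change of -0.10. Sdcbp, the adaptor protein syntenin, had a log2 fold change of 0.00, and Chd7, a chromatin remodeller, one of -0.09. The interval was within a log2 fold change of 0.5 of 0 in 7 of the 9 genes.

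The 8 genes beyond 5 Mb with an unadjusted p below 0.05 all lie within one stretch that ends 8.09 Mb from Penk. The stretch, 1.09 Mb long, was drawn after the values were seen, from the first to the last of these genes, and not tested. It holds 21 genes of the window. The other 12 genes beyond 5 Mb include 0 with an unadjusted p below 0.05, which follows from how the stretch was drawn. Gm11830, at chr4:11144710-11145270, had the largest change. It is a processed pseudogene without introns, 92.8% identical to transcripts of Hmgb1, a chromatin protein. It had 96.9, 68.7, 73.4 and 90.6 normalized counts in penk-/- and 187, 145, 201 and 121 in penk+/+ chimeras, and no value of one group reached the other. The means were 82.4 ± 13.5 and 163 ± 37.2 (SD, n = 4 each), and the log2 fold change was -0.96 (standard error 0.19, limma adjusted p = 0.323, exact permutation p = 0.0286). Hmgb1 itself, at a mean of 8765 normalized counts, had a log2 fold change of 0.03 (limma adjusted p = 0.922). Reads shared between the copies make the count of Gm11830 uncertain.

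1700123M08Rik, the non-coding RNA that starts beside Pdp1, had 53.5, 50.4, 50.2 and 59.7 normalized counts in the penk-/- chimeras and 82.1, 71.3, 88.9 and 66.9 in the penk+/+ chimeras. All 4 penk-/- values lay below the penk+/+ values, with means of 53.4 ± 4.43 and 77.3 ± 10.0 (SD, n = 4 each) and a log2 fold change of -0.52 (standard error 0.15, limma adjusted p = 0.385, exact permutation p = 0.0286). Pdp1 had 991, 1193, 1027 and 1135 against 1159.9, 989, 1094 and 902, a log2 fold change of 0.07 (95% interval -0.14 to 0.29).

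Tmem67 codes meckelin, a membrane protein of the base of the cilium. It had 246, 240.4, 291 and 286 normalized counts in penk-/- and 327, 324, 359.8 and 306 in penk+/+ chimeras, again without overlap. Its log2 fold change was -0.31 (standard error 0.10, limma adjusted p = 0.415, exact permutation p = 0.0286). It overlaps by 711 bases with Rbm12b2, a gene for an RNA-binding protein on the opposite strand, whose mean lay the other way. Rbm12b2 had 697, 642, 651 and 767 against 565, 584, 661 and 559.9, a log2 fold change of 0.22 (standard error 0.09, limma adjusted p = 0.473), and penk+/+ replicate 3 lay within the range of the penk-/- mice. Gm11842, a non-coding RNA that also overlaps Tmem67 on the opposite strand, stayed below the minimum with 3.63 normalized counts on average.

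The other 4 genes of this stretch with an unadjusted p below 0.05 had groups that overlapped. Trp53inp1, a stress protein induced by p53, had 4756, 4364, 4129.9 and 5591 normalized counts in penk-/- and 5878, 6010.4, 5663 and 4996 in penk+/+ chimeras, with penk-/- replicate 4 among the penk+/+ values. Its log2 fold change was -0.27 (standard error 0.10, limma adjusted p = 0.453). Ccne2, cyclin E2 of the entry into DNA replication, had 381, 443, 393 and 386 against 270.1, 295, 414 and 298, with penk+/+ replicate 3 among the penk-/- values.

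Ints8, a subunit of the Integrator complex that processes small nuclear RNAs, overlaps Ccne2 by 8127 bases on the opposite strand. It had 1734, 1489, 1639.8 and 1493 normalized counts in penk-/- against 1529.6, 1375, 1334 and 1325 in penk+/+ chimeras. The log2 fold changes of Ccne2 and Ints8 were 0.34 and 0.19 (standard errors 0.14 and 0.08, limma adjusted p = 0.465 and 0.466). Gm11847, a pseudogene 98.1% identical to transcripts of the splicing factor gene Hnrnpa3, had 40.4, 50.4, 45.1 and 30.9 against 29.9, 27.6, 33.7 and 27.4, a log2 fold change of 0.46 (standard error 0.20, limma adjusted p = 0.506). Hnrnpa3 had 0.06.

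**Figure D3:**
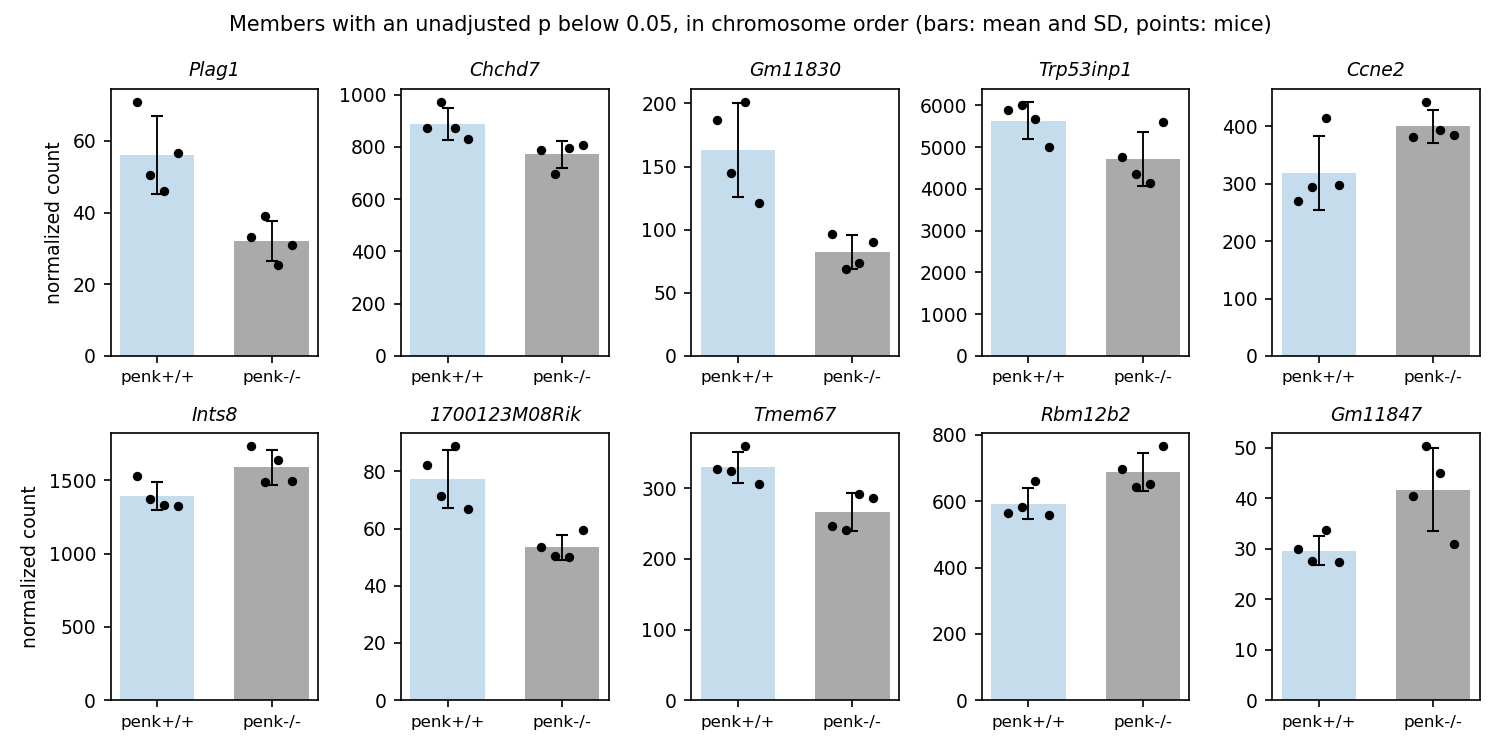
Normalized counts of the 10 genes with an unadjusted p below 0.05, in chromosome order, with bars for the mean, error bars for the SD and points for the 4 mice of each group. In Plag1, Chchd7, Gm11830, 1700123M08Rik and Tmem67 every penk-/- point lies below every penk+/+ point.

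Epithelial genes of the window were read at high levels in both groups. Cdh17, a cadherin of the intestinal epithelium, was the most abundant gene per length, with 6458 normalized counts per kb of exon. It had 33647, 27167, 21829 and 27419.9 normalized counts in penk-/- and 37889, 28942, 28262 and 29454 in penk+/+ chimeras, a log2 fold change of -0.18 (95% interval -0.50 to 0.13). The lowest value was that of penk-/- replicate 3, which also had the lowest sum of epithelial markers, and the highest that of penk+/+ replicate 1, with the highest sum. The part of the epithelial share in this difference was not tested. Esrp1, a splicing regulator of epithelial cells, had 12403, 10444, 8774 and 11150.5 against 11465, 9850.0, 8934 and 10907, a log2 fold change of 0.05 (-0.21 to 0.31).

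By role, the genes were spread over many functions, and none of the lists had a gene past the adjusted threshold. Over all 19127 genes tested, 9780 had a log2 fold change above 0 and 9347 below, and 9.63% had an unadjusted p below 0.05. Each list, here and below, holds few genes for a share. Of 7 genes for RNA processing and the ribosome, 6 had a log2 fold change above 0, and Ints8 and Rbm12b2 an unadjusted p below 0.05. All 5 genes for transcription and chromatin (Plag1, Chd7, Tox, Runx1t1 and Fsbp) had log2 fold changes below 0, from -0.78 to -0.01, and Plag1 alone had an unadjusted p below 0.05. In the list of signalling and membrane traffic, 7 of 12 genes were above 0 and 5 below, and 0 had an unadjusted p below 0.05. It includes Gdf6, a ligand of the BMP family, with the highest log2 fold change of the window, 0.67 (95% interval -0.08 to 1.41), from 12.1, 20.6, 10.9 and 22.1 against 14.9, 8.56, 9.20 and 6.86 normalized counts.

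The role list for metabolism and mitochondria has 7 of the 53 genes, with log2 fold changes from -0.23 to 0.07, and Chchd7 alone had an unadjusted p below 0.05. The list for the cell cycle, damage response and repair has 3, with Ccne2 above 0 and Trp53inp1 below it at an unadjusted p below 0.05, and Rad54b, a helicase of recombination repair, at -0.06. Of the other genes of these lists, Ttpa and Ggh start beyond the window, and Mos and Cyp7a1 are not analysed here. The 17 genes in no list, mostly non-coding RNAs and pseudogenes, had a median log2 fold change of 0.09. They included 3 (17.6%) with an unadjusted p below 0.05, beside 9.63% of all genes.

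The pseudogenes had the highest median size of the log2 fold change by type, 0.41 over 6 genes. It was 0.09 over the 41 protein-coding genes and 0.16 over the 6 long non-coding RNAs. The median standard errors were 0.20, 0.11 and 0.29 in the same order. The pseudogenes include Gm12918, 100% identical to transcripts of the ribosomal protein gene Rpl13 over its length. Its log2 fold change was 0.18 where Rpl13 had -0.36. They also include Gm12919, 96.9% identical to transcripts of the nuclear import gene Kpna2, with 0.32 where Kpna2 had 0.41. Reads shared with Rpl13 and Kpna2 make the counts of these copies uncertain, and the contrasts with them cannot be read as differences in expression. The 17 genes with a mean of at least 1000 normalized counts had log2 fold changes of at most 0.27 in size, and all 5 genes that passed 0.5 had means below 1000.

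**Figure D4:**
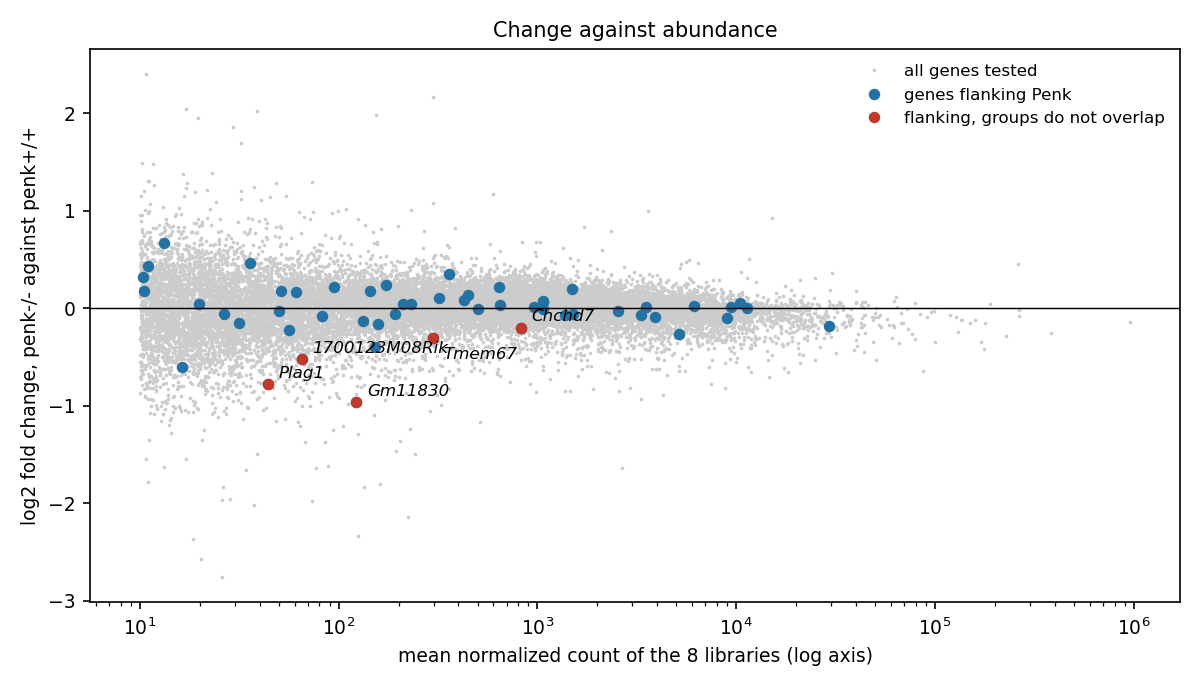
Log2 fold change (penk-/- against penk+/+ chimeras) against the mean normalized count of the 8 libraries on a log axis, for all 19127 genes tested (grey) and the 53 genes flanking Penk (blue, or red where the groups do not overlap). Of the flanking genes 0 pass 1 in size, as 119 of all genes do, and the 5 red genes lie below 0.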

How the data were processed

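Total RNA of colonic biopsies was sequenced from stranded, paired-end poly-A libraries, 1 per mouse. The authors checked reads with FastQC, aligned and counted them with STAR 2.7.8a on GRCm39 and used DESeq2 1.30.0. The values the authors deposited are a normalized signal per gene and library, read counts divided by a size factor, neither raw counts nor log values. All 8 value columns were used. Groups and replicate numbers came from the labels.

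Each library's values were whole multiples of a step (tolerance 0.01), which gave the read totals. The count tests planned on these reads were not run here. Genes were placed with GENCODE M39, which matched 25776 of 26008 identifiers, and 87 of the genes tested have no position. R 4.3.3 with limma 3.58.1 (a linear model per gene without covariates, moderated with a variance trend, two-sided) compared penk-/- with penk+/+ chimeras on log2(normalized count + 1) for genes with a mean of at least 10. The limma p-values weigh the difference between the groups against the spread between these mice. Levels per kb use the length of all annotated exons. Sequences were read from the GRCm39 genome, and copies were matched to transcripts with blastn 2.17.0. The fit was tested on simulated data.

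Members and lists were chosen with earlier results of these data known. Values in every mouse are given for genes within 1 Mb of Penk, the 10 smallest p, genes whose groups do not overlap, Lyn, Tox, Rps20, Cdh17 and Esrp1. Pdp1 and Gdf6 were added after their values were seen. The values of 1 gene within 1 Mb and 1 promoter sequence are not reported here. Alternatives were a pseudocount of 0.1 or 8, a minimum mean of 50 or none, limma without trend, quantile-normalized values, a block for the replicate number, a window of 5 Mb, distance between start sites, and libraries left out.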

Additional observations from a re-analysis of the deposited data

Results flagged for a closer look

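In 44 groups of 4 mice (the 2 groups of each of 22 genes), the highest or lowest value stood apart from the other 3 in 2 groups, where chance would give about 2.2. The ratio is the gap to the nearest mouse divided by the range of the group, and it passed the 95% critical value of Dixon's test in these. AI838599 was highest in penk+/+ replicate 3, with 70.5 normalized counts and a ratio of 0.837. Cdh17 was highest in penk+/+ replicate 1, with 37889 normalized counts and a ratio of 0.876. Neither gene had an unadjusted p below 0.05.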

How the results depend on the processing

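At an adjusted p below 0.05, 0 genes of the window were called in each setting run. Planned count tests with edgeR and DESeq2 were not run. A window of 5 Mb, with 20 genes, gave 2 at an unadjusted p below 0.05 and 2 whose groups do not overlap. Over all genes tested the shares were 9.63% and 5.63%. The smaller window also gave a median size of the log2 fold change of 0.0617 and a rank correlation with the distance of -0.30. Quantile normalization gave 0.188 for this correlation over the 53 genes. Without penk-/- replicate 3 and penk+/+ replicate 4, 6 genes (11.3%, against 9.07% of all genes) had an unadjusted p below 0.05 and 8 (15.1%, against 15.3%) had groups that do not overlap. With 1 library left out, the first count ranged from 4 (7.55%) without penk+/+ replicate 2 to 10 (18.9%) without penk-/- replicate 4. The second ranged from 5 (9.43%) without penk+/+ replicate 2 to 9 (17.0%) without penk+/+ replicate 3. Over all genes the shares in the same order were 7.51%, 7.41%, 7.87% and 9.55%. Across these fits the shares over all genes ranged from 7.23% to 11.6% and from 7.83% to 12.0%, and the correlation from 0.214 to 0.312.

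Replicate numbers did not pair the mice (correlations of the deviations 0.145, -0.0444, -0.321 and -0.162). With the number as a block, 9 genes (17.0%) had an unadjusted p below 0.05, near the 15.4% of all genes in that fit, and 0 were called, with Gm11830 at the lowest limma adjusted p of any setting, 0.149. Of 349 values for 22 named genes under the alternatives, 20 changed sign, in 8 genes (AI838599, Tmem68, Tgs1, Rps20, Sdr16c5, Bpnt2, Tox and Esrp1). Gm11830, 1700123M08Rik, Tmem67 and Plag1 kept their sign and an unadjusted p below 0.05 wherever they were fitted, Plag1 with log2 fold changes from -0.87 to -0.66. These genes had the smallest p of the window and were refitted on the same mice, so this is no independent support. Their highest limma adjusted p under the alternatives was 0.628, 0.648, 0.651 and 0.628. Genes with few counts limit these comparisons: 0 of the 17 with a mean below 100 had an interval within 0.5 of 0.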

Other observations

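Of the 14 genes of the window below the minimum, Gm11842 had 6.06, 3.434, 6.54 and 4.42 normalized counts in penk-/- replicates 1 to 4. In penk+/+ replicates 1 to 4 it had 1.24, 1.90, 2.04 and 3.430, so its groups did not overlap, by a narrow margin. That margin came from the scaling of the libraries. A read counts as 1.14 in penk-/- replicate 2 and as 0.857 in penk+/+ replicate 4, so fewer reads stand behind 3.434 than behind 3.430. Without a minimum, 4.96% of all genes had groups that did not overlap. A relation of Gm11842 to Tmem67, which it overlaps on the opposite strand, was not tested. Gm11831, a non-coding RNA that overlaps Virma on the opposite strand, was listed at 0 in all 4 penk-/- chimeras and at 1.24, 3.80, 0 and 4.29 in the penk+/+ chimeras. Neither was tested, and both were named after their values were seen.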
